A study of Mus musculus with 3 samples.

Results

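The genes described here are 10 genes that mark microglia at rest, most of them for surface receptors or secreted proteins: Tmem119, Fcrls, Cx3cr1, Siglech, Gpr34, Olfml3, Selplg, Sparc, Cd33 and Crybb1. They were taken by symbol from the gene table, which holds 27998 genes, and each symbol matched 1 row. They were followed in YFP (+) cells sorted from lumbar cords of heterozygous Cx3cr1-creER-yfp/+ mice (strain C57BL/6, young adults), left naive or taken 24 h or 48 h after sciatic nerve transection. By the paper's methods, which cover more libraries than these, the cords of 3 animals were pooled per group. Each group gave 1 scRNA-Seq library, so no value carries a spread between animals. All animals shared the knock-in allele at Cx3cr1, a member of the list, whose promoter also drives the YFP of the sort. After the sort, by the same methods, the cells of all groups were held in serum-free medium with TGF-β2, IL34 and cholesterol. The deposited matrix joins the 3 libraries under a barcode suffix of 1, 2 or 3. Because no source ties a suffix to naive, 24 h or 48 h, the libraries are named by suffix, no direction in time is given and no test was made. Libraries prepared 72 h after injury or from conditional knockout mice were not analysed here.

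Microglia are the resident macrophages of the brain and spinal cord. In the healthy cord they carry a set of surface receptors that read signals from neurons, lipids and sialic acids, and this set depends on TGF-β and CSF1R signalling and on the transcription factors PU.1 and SALL1. Loss of the set is widely used as a sign that microglia have left the resting state. Among the members, TMEM119 is a transmembrane protein that marks resident microglia, CX3CR1 is the receptor of the neuronal chemokine fractalkine, and GPR34 is a receptor of lysophosphatidylserine. Siglec-H and CD33 belong to the Siglec family, which is named for sialic acid binding. FCRLS is an Fc receptor-like scavenger protein, and SELPLG (PSGL-1) is the ligand of P-selectin. SPARC and OLFML3 are secreted matrix proteins. Crybb1 encodes a crystallin of the lens, neither a receptor nor a known secreted protein.

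The genes are spread over the genome (GRCm38, GENCODE M21). Tmem119 (chr5:113793729-113800516) and Selplg (chr5:113818536-113832644) lie on the same strand with a gap of 18019 bp, while Crybb1 lies elsewhere on chromosome 5. Gpr34 (chrX:13632089-13640858) overlaps Cask on the opposite strand. The annotated span of Cx3cr1 (chr9:119901616-120069879) overlaps Gorasp1, Csrnp1 and Xirp1 on its own strand. Spans take in introns, and whether exons overlap was not checked, so no effect on the Cx3cr1 counts is read from this. RefSeq promoter windows (GRCm38.p6, 250 bases before to 50 bases after the start) were matched for 7 of the 10 genes (all but Tmem119, Gpr34 and Selplg). The PU.1 core GAGGAA, searched on both strands, was in 3 of the 7 windows (Fcrls, Siglech and Cd33) and in 28.3% of all 32851 windows. The Smad core CAGAC was in 5 of 7 and in 49.6% of all windows. The MEF2 core TATTTATA (1.70% of all windows) and a repeat of GAAA with any 2 bases between (3.44%) were in none of the 7. The stretches below are shown because PU.1 is the lineage factor of these cells. They are written 5′ to 3′ on the strand of the gene, with the PU.1 core or its reverse complement in capitals.
Fcrls, chr3:87263603-87263728, minus strand: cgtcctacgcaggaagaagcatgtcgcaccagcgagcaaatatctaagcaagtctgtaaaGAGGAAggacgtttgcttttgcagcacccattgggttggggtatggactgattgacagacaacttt
Siglech, chr7:55768120-55768185, plus strand: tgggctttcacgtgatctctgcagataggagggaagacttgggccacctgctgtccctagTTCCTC
Cd33, chr7:43533332-43533421, minus strand: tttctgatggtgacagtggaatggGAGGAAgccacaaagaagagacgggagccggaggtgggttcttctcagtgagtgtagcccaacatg
The core ended 138 bases before the RefSeq start in Fcrls and 220 bases before it in Cd33, and in Siglech it ran 2 bases past the start. The GENCODE M21 spans of Fcrls (chr3:87250758-87263738), Siglech (chr7:55768178-55778925) and Cd33 (chr7:43524216-43544428) take in these cores. A place before the start thus holds for the RefSeq start only. A match of letters is not a site of binding.

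Libraries 1, 2 and 3 held 609, 3591 and 3322 cells, with medians of 2218, 5952 and 5742 UMIs (unique molecular identifiers, 1 per counted RNA molecule) per cell. Library 1 stood apart in depth, and 25 barcode sequences occurred in more than 1 library. Levels below are CPM, the summed UMIs of a gene per 1000000 UMIs of the library, with exact 95% Poisson intervals. Shares of cells with at least 1 UMI were taken after each cell was thinned at random to 2000 UMIs, which left 408, 3569 and 3284 cells and left out 201, 22 and 38 shallower cells. The intervals cover counting error only. The microglia markers Sall1, Trem2, C1qa and P2ry12 were found in every library. The 7 monocyte markers summed to 3.32 to 8.93 CPM and the 7 perivascular macrophage markers to 0.745 to 2.28 CPM, with Cd163 and Lyve1 at 0 in every library. The lymphocyte and NK list stood at 13.4, 17.5 and 3.54 CPM, led by Klrd1 in libraries 1 and 3 and by Gzma (9.34 CPM) in library 2, with Cd3e at 0 in each. Neutrophil, erythroid and neuron lists were at most 5.41 CPM, and the endothelial and mural list was 15.2 to 35.0 CPM, nearly all Pecam1. The astrocyte list reached 103 to 167 CPM, nearly all of it Slc1a3, and the oligodendrocyte list 144 to 149 CPM, led by Cnp. No cell type that lacks the 10 genes was set apart here, so the share of their UMIs that comes from free RNA could not be measured.

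Together the 10 genes took 1.82%, 1.66% and 1.68% of all UMIs in libraries 1, 2 and 3. A thinned cell held a UMI of a median of 9, 8 and 8 of the 10 genes, and all 10 were seen in 14.5%, 7.93% and 8.19% of cells. Cells with 5 or fewer of the genes numbered 3, 24 and 14. P2ry12, the purinergic receptor of resting microglia, was found in 66.7% of those cells in library 1 and in 100% of them in libraries 2 and 3. No thinned cell lacked the whole set, and the lowest of any library held 2 of the 10 genes. The median thinned cell held 37, 33 and 34 UMIs of the 10 genes, so a cell without any was unlikely at this depth. The 201, 22 and 38 cells under 2000 UMIs were not checked.

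**Figure D1:**
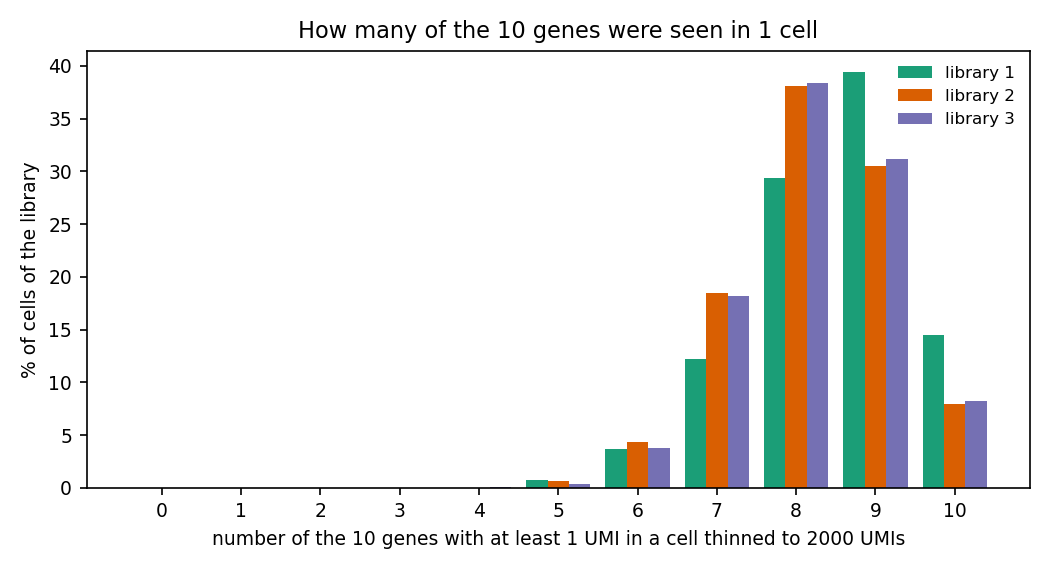
Percent of cells of each library (vertical axis, bars starting at 0) by the number of the 10 genes with at least 1 UMI after thinning to 2000 UMIs per cell (horizontal axis), with 1 colour per library. Most cells held 7 to 10 of the genes, and the bars at 10 stand at 14.5%, 7.93% and 8.19% for libraries 1, 2 and 3.

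Among the receptors, Gpr34 differed most between libraries. It stood at 1871 CPM (1799 to 1946) in library 1, 787 CPM (776 to 798) in library 2 and 932 CPM (919 to 946) in library 3. Library 1 was thus the highest and library 2 the lowest, with no overlap of intervals. At equal depth, 94.4%, 78.8% and 83.5% of cells had a Gpr34 UMI, and a thinned cell carried 3.70 ± 2.27, 1.65 ± 1.40 and 1.97 ± 1.55 UMIs (mean ± SD over cells, n = 408, 3569 and 3284). These means take in the cells without a Gpr34 UMI, so they give the level again at equal depth. A lower mean by itself leaves fewer cells with a UMI, so share and mean are not read as separate findings. Whether the lower sums in libraries 2 and 3 came from some cells or from all of them was not tested.

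Tmem119 went the other way, at 2823 CPM (2734 to 2914), 3416 CPM (3393 to 3440) and 3814 CPM (3786 to 3841) in libraries 1, 2 and 3. It was seen in 99.0%, 99.7% and 99.9% of thinned cells, so the differences lay in UMIs per cell. Cx3cr1 was at 2011 CPM (1936 to 2088), 1503 CPM (1488 to 1519) and 1541 CPM (1524 to 1559), with shares of 97.3%, 95.2% and 94.6%. Libraries 2 and 3 were close together for this receptor and library 1 was above both. Selplg was found in 99.8%, 99.8% and 99.9% of thinned cells and had 4379 CPM (4268 to 4492), 3191 CPM (3168 to 3213) and 3583 CPM (3556 to 3609). Its order of libraries, 1 above 3 above 2, was also that of Gpr34 and Crybb1, and how many of all genes have this order was not counted. For Cx3cr1 the share intervals of libraries 2 and 3 overlapped, so the shares gave no order of them. The point values of shares and summed levels went opposite ways, and no order of these libraries is read.

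Both Siglec genes were highest in library 1. Siglech was at 1087 CPM (1032 to 1144), 785 CPM (774 to 797) and 710 CPM (698 to 722), in 86.8%, 79.0% and 76.1% of thinned cells. Cd33, whose human counterpart is a risk gene of Alzheimer disease, was the least counted member, at 342 CPM (311 to 375), 209 CPM (203 to 215) and 194 CPM (188 to 201). A Cd33 UMI was found in 46.3%, 34.2% and 32.3% of thinned cells, and the share intervals of libraries 2 and 3 overlapped. Fcrls was the one receptor with library 2 lowest and library 3 highest: 1329 CPM (1268 to 1392), 1241 CPM (1227 to 1256) and 1464 CPM (1448 to 1481). Its shares, 84.3%, 89.6% and 92.3%, put library 1 lowest, so for libraries 1 and 2 the share and the summed level gave opposite orders. The mean at equal depth, 2.60 UMIs in library 1 and 2.39 in library 2, had the order of the summed level. Neither order is read here.

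Both genes of secreted proteins were highest in library 2. Sparc, which encodes a collagen-binding protein, was at 2225 CPM (2146 to 2306), 2762 CPM (2741 to 2783) and 2369 CPM (2347 to 2390). Olfml3 was at 1797 CPM (1726 to 1870), 2407 CPM (2388 to 2427) and 1929 CPM (1910 to 1948). The pair shared 1 order of libraries, 2 above 3 above 1. Crybb1 was at 383 CPM (351 to 418), 270 CPM (263 to 276) and 300 CPM (292 to 307), with overlapping shares of 47.5%, 42.3% and 45.4%. The CPM intervals of the 10 genes were apart between libraries, so counting error is smaller than the differences. That says nothing of the spread between animals or preparations. With sums this large a ratio of 1.03 (Cx3cr1, library 3 against library 2) sufficed. How many of all genes have intervals apart was not counted, so this is not read as a trait of the members. At equal depth the share intervals overlapped for 4 members (libraries 2 and 1), 3 members (3 and 1) and 5 members (3 and 2). UMIs are counted at the 3′ end and were not divided by gene length, so levels are compared between libraries and not between genes.

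**Figure D2:**
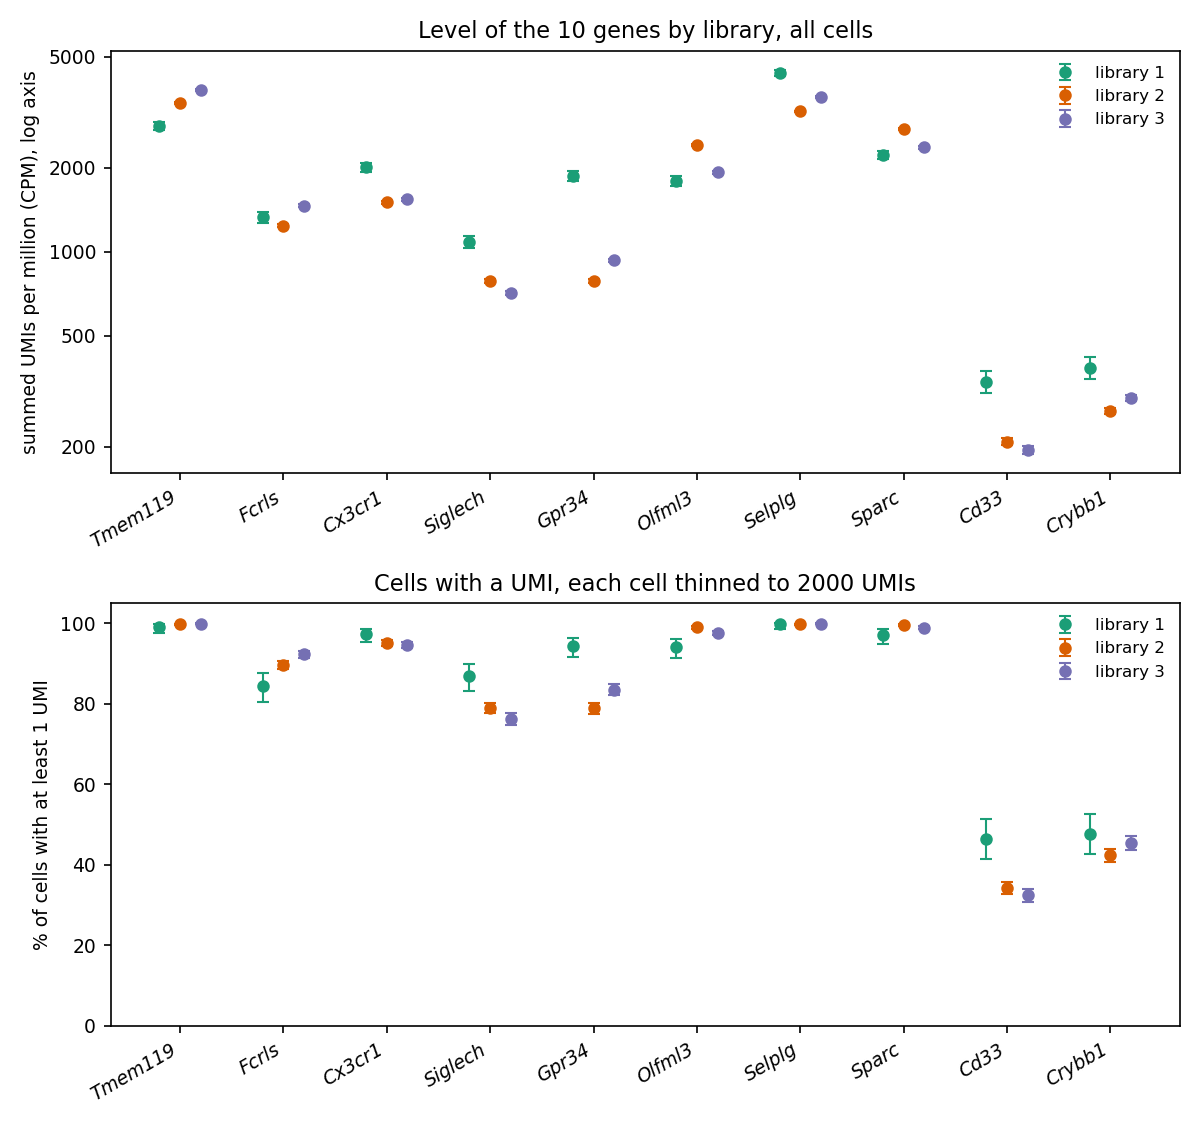
Upper panel, summed UMIs per 1000000 (CPM, log axis) of each of the 10 genes in libraries 1, 2 and 3, all cells, with exact 95% Poisson intervals. Lower panel, percent of cells with at least 1 UMI after thinning to 2000 UMIs per cell, with exact 95% binomial intervals. Gpr34 stands at 1871 CPM in library 1 and 787 CPM in library 2, and Tmem119, Olfml3 and Sparc are lowest in library 1.

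Set against library 1, library 2 had no member higher by 1.5-fold or more and 2 lower, while 12.1% of the 6204 genes with at least 20 CPM were higher and 14.7% lower by that fold. Gpr34 differed by a log2 ratio of -1.25 (95% interval -1.31 to -1.19) and Cd33 by -0.71 (-0.85 to -0.57). Crybb1, at a ratio of 0.703, was the nearest member not past the fold. Between these libraries 7 of the 10 members were below 0, with a median log2 ratio of -0.44 beside -0.08 over all genes tested. Olfml3 (0.42), Sparc (0.31) and Tmem119 (0.28) were the members above 0. Scaling by the median of ratios moved the share of called genes that were higher from 45.0% to 55.7%, and left the same counts of members.

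Library 3 set against library 1 also had no member higher by the fold, and 3 lower, beside backgrounds of 10.7% higher and 16.2% lower among 6150 genes. The 3 were Gpr34 at a ratio of 0.498 (0.478 to 0.520), Cd33 at 0.569 (0.516 to 0.628) and Siglech at 0.653 (0.619 to 0.690). Siglech lay just past the fold, with a log2 ratio of -0.61, and was not past it under median-of-ratios scaling (-0.54), with mitochondrial, ribosomal, immediate early and cell-cycle genes left out of the total (-0.56) or with cells thinned to 2000 UMIs (-0.53). The median log2 ratio of the members was -0.32, beside -0.07 over all genes, and Tmem119 (0.43), Fcrls (0.14), Olfml3 (0.10) and Sparc (0.09) were above 0. Under median-of-ratios scaling the share of called genes that were higher went from 39.7% to 49.9%. These comparisons both use library 1, the shallow one, and are not independent of each other.

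Libraries 2 and 3 were nearly alike in depth, and no member differed between them by 1.5-fold, with 3.23% of 6002 genes higher and 4.17% lower in library 3. The member differences ran from -0.32 for Olfml3 (-0.34 to -0.30) to 0.24 for Gpr34 (0.22 to 0.27). Fcrls (0.24), Selplg (0.17), Tmem119 (0.16) and Crybb1 (0.15) were also above 0, and Sparc (-0.22), Siglech (-0.15) and Cd33 (-0.10) below. The same libraries differed far more in other genes: 18 of 18 immediate early genes past the filter were higher in library 3 (median log2 ratio 3.48), and 10 of 10 mitosis genes were lower (median -4.93).

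**Figure D3:**
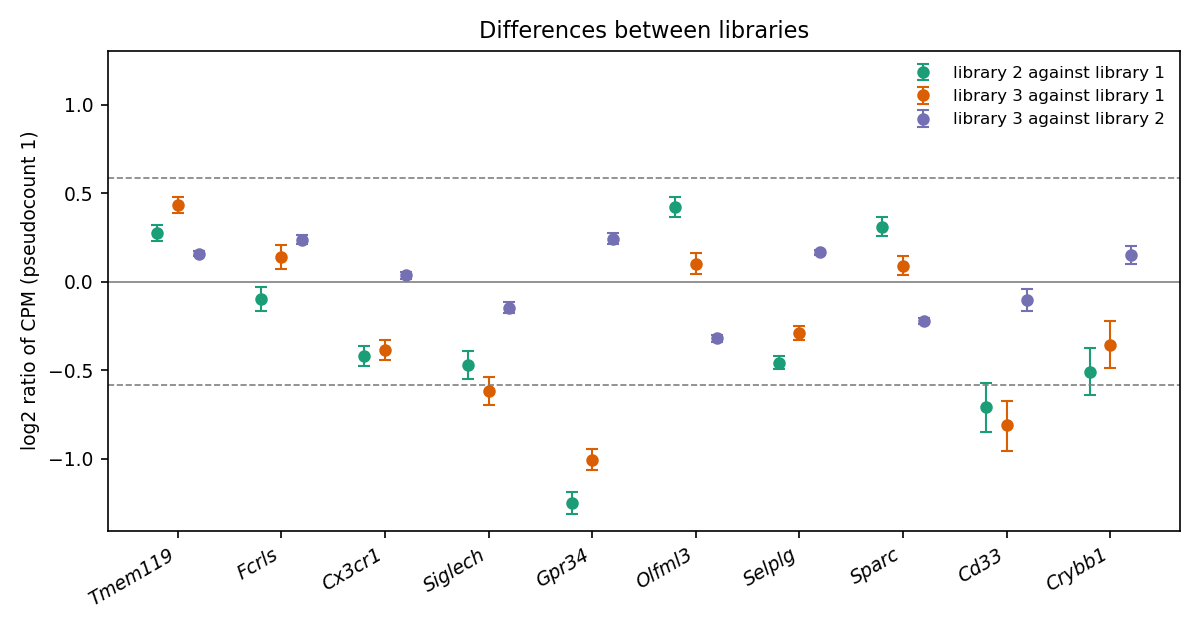
log2 ratio of CPM (pseudocount 1) of each of the 10 genes for library 2 against 1, 3 against 1 and 3 against 2, with 95% intervals of counting error and dashed lines at 1.5-fold. Gpr34 and Cd33 lie past the lower line in both comparisons with library 1 and Siglech in that of library 3, while no gene passes a line between libraries 2 and 3.

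Of 30 other homeostatic genes, all past the filter, none was higher and 9 were lower by the fold in library 2 than in library 1, beside 12.1% and 14.7% of all genes, with a median log2 ratio of -0.32. The lowest were Mertk (-1.09), a receptor for the uptake of dying cells, and Sall1 (-0.94), the transcription factor of microglial identity. The highest of the 7 above 0 were the complement genes C1qb (0.47) and C1qa (0.43). In library 3 against library 1 the counts were 0 and 7 (median -0.16), beside 10.7% and 16.2% of all genes, with Sall1 at 181 CPM in library 1 and 89.8 CPM in library 3, and Mertk at a log2 ratio of -0.94. There 11 were above 0, led by Gas6 (0.56), a bridging ligand of MERTK, and Lag3 (0.33). P2ry12 was at 4081, 2267 and 2517 CPM in libraries 1, 2 and 3, the same order as Gpr34, Selplg and Crybb1. Csf1r, the receptor on which microglial survival depends, was lowest in library 2, at 2370, 1752 and 2324 CPM. Its intervals in libraries 1 (2288 to 2454) and 3 (2303 to 2346) overlapped, so no order of those libraries is read.

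The ligands, adaptors and regulators tied to the 10 genes were measured in a list of 22. Cx3cl1, the ligand of CX3CR1, is made by neurons and was at 0 UMIs in library 1 and at 0.0415 and 0.101 CPM in libraries 2 and 3. Of the 20 list genes past the filter, 4 were lower by the fold in library 2 than in library 1 and none was higher: Mef2a (-0.84), Gnai3 (-0.79), Adam17 (-0.67) and Tgfbr2 (-0.65). That count is near the 14.7% of all genes that were lower. In library 3, Mef2a (-0.74) was the 1 gene lower, where 16.2% of all genes were. The DAP12 adaptor gene Tyrobp, through which Siglec-H signals, had a log2 ratio of 0.39 between libraries 2 and 1, and Spi1, which encodes PU.1, had -0.01. Activation genes did not move together: in library 2 against library 1, Cst7 (1.82) and Fth1 (0.81) were higher and Apoe (-1.01), Cd9 (-0.86) and Lpl (-0.85) lower by the fold, of 12 past the filter.

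Dividing cells were then set against the rest inside library 2. Cells thinned to 2000 UMIs were called mitosis-gene cells with at least 3 UMIs of 20 mitosis genes (815 cells, 22.8%), replication-gene cells with at least 3 UMIs of 20 replication genes and fewer of mitosis genes (712 cells, 19.9%), and other cells with at most 1 UMI of both lists (686 cells, 19.2%). The remaining 1356 cells fell between. These classes are ranges of a sum: 358 of the mitosis-gene cells held exactly 3 mitosis UMIs and 366 of the replication-gene cells exactly 3 replication UMIs. Before thinning the medians were 7496, 6272 and 5597 UMIs per cell. Library 1 had 2 mitosis-gene and 11 replication-gene cells and library 3 had 5 mitosis-gene cells, too few to compare.

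No member differed by 1.5-fold between mitosis-gene and other cells of library 2, where 5.14% of 6066 genes were higher and 1.57% lower. Among the 3192 genes with a mean of at least 50 CPM, 2.26% were higher and 0.34% lower. Each member stood above that level. Few such genes passed the fold, so the absence of members past it is not read as a trait of theirs. Gpr34 had the lowest ratio, with 682 CPM (643 to 724) in mitosis-gene cells, 805 CPM (759 to 853) in replication-gene cells and 906 CPM (856 to 958) in other cells. A Gpr34 UMI was found in 71.8%, 78.5% and 82.1% of these cells. The log2 ratio was -0.41 (-0.53 to -0.29) in mitosis-gene cells and stayed below 0 under each alternative tried, from -0.74 to -0.24. Among the other members, intervals lay below 0 for Selplg at -0.18 (-0.24 to -0.12), Siglech at -0.18 (-0.29 to -0.06), Tmem119 at -0.10 (-0.16 to -0.04) and Cx3cr1 at -0.09 (-0.17 to -0.01). How many of all genes have intervals that leave out 0 was not counted, here or in the comparisons of cells below. Such intervals are therefore not read as a trait of the members. Selplg shrank to -0.04 and Siglech to -0.03 with thinning to 1000 UMIs, while Cx3cr1 turned to 0.01 and Tmem119 shrank to -0.0037 with thinning to 4000 UMIs, where 65 other cells were left. The class limits in UMIs were the same at each depth, so the classes then held other sets of cells.

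The intervals of Crybb1 (-0.16), Cd33 (-0.13), Fcrls (0.08), Sparc (0.02) and Olfml3 (0.02) took in 0. For the secreted pair they were narrow, -0.04 to 0.09 for Sparc and -0.05 to 0.09 for Olfml3. Counting error alone thus left both well inside the fold in this library, and spread between animals is not covered. Over the alternatives Sparc ran from -0.015 to 0.034 and Olfml3 from -0.0094 to 0.042, so neither sign is read. For Cd33 (-0.36 to 0.10) and Crybb1 (-0.36 to 0.04) they were wide, since a thinned cell held less than 1 UMI of either gene on average. The median over the members was -0.12, the same as over the 30 other homeostatic genes, beside 0.02 over all genes.

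Replication-gene cells of library 2 lay closer to other cells, with no member past the fold and a median of -0.09, while 2.81% of 6020 genes were higher and 1.64% lower. With a mean of at least 50 CPM asked for, 0.60% of 3151 genes were higher and 0.19% lower. The absence of members past the fold is thus not read as a trait of theirs here either. Gpr34 was at -0.17 (-0.29 to -0.05), Selplg at -0.09 (-0.15 to -0.03) and Cx3cr1 at -0.10 (-0.19 to -0.02), the last turning to 0.04 with thinning to 4000 UMIs. The other intervals took in 0. In library 3, 232 replication-gene cells were set against 2491 other cells, and again no member passed the fold, beside 4.64% of 5931 genes higher and 3.2% lower. The shares at 50 CPM were not taken there. Gpr34 (-0.16, -0.31 to -0.01) and Selplg (-0.11, -0.19 to -0.04) were again below 0, as were Sparc (-0.12, -0.21 to -0.02) and Tmem119 (-0.08, -0.15 to -0.01). Sparc had been level in library 2. Fcrls was above 0 (0.16, 0.05 to 0.27), with 1599 CPM in replication-gene and 1430 CPM in other cells. No alternative was run for these classes of library 3. In library 2 the Fcrls ratio of replication-gene cells turned from 0.05 to -0.05 with another thinning seed.

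**Figure D4:**
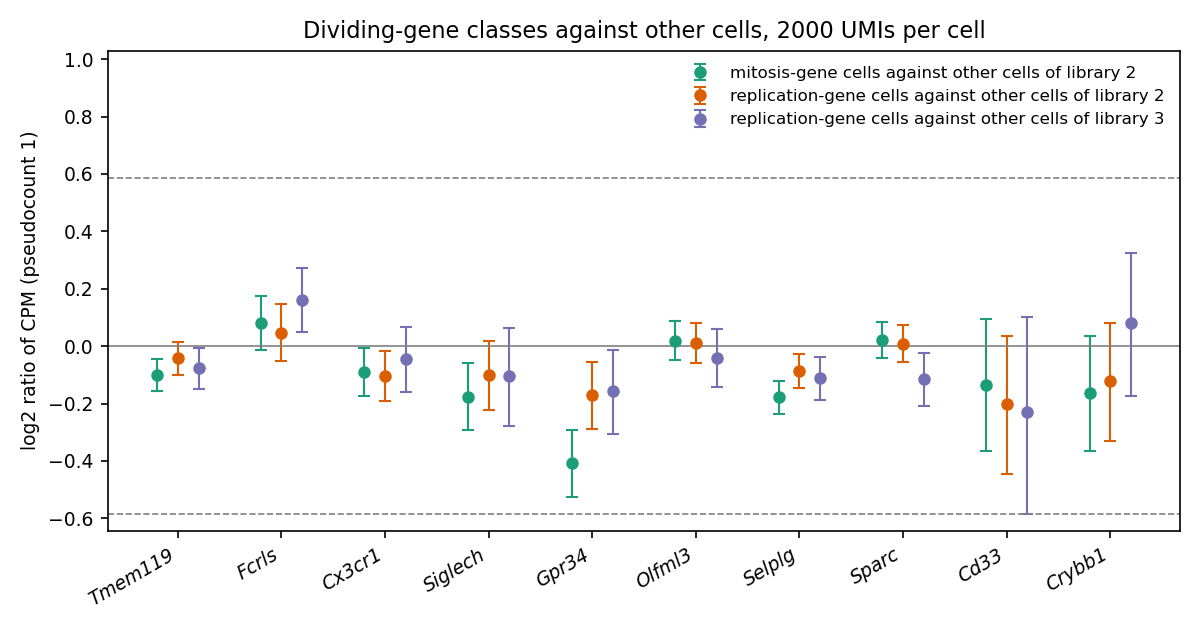
log2 ratio of CPM (pseudocount 1) of each of the 10 genes for mitosis-gene cells of library 2 and replication-gene cells of libraries 2 and 3, each against other cells of the same library at 2000 UMIs per cell, with 95% intervals of counting error and dashed lines at 1.5-fold. No point passes a dashed line, and Gpr34 in mitosis-gene cells is lowest at -0.41.

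Among other cells alone, the point values of 9 of the 10 genes had the same order of libraries as over all cells. The exception was Cx3cr1, at 2030 CPM (1926 to 2138), 1601 CPM (1534 to 1669) and 1561 CPM (1526 to 1596) in libraries 1, 2 and 3, where the intervals of libraries 2 and 3 overlapped. In those cells Gpr34 was at 1831 CPM (1733 to 1934) in library 1, 906 CPM (856 to 958) in library 2 and 996 CPM (968 to 1024) in library 3. Tmem119 was at 2686 CPM (2566 to 2809), 3551 CPM (3452 to 3652) and 3875 CPM (3821 to 3930), in the same order as over all cells. Cd33 was at 333 CPM (292 to 378), 222 CPM (197 to 248) and 198 CPM (185 to 210), where the intervals of libraries 2 and 3 overlapped. Siglech was at 1038 CPM (964 to 1116), 854 CPM (806 to 905) and 721 CPM (698 to 745). Intervals also overlapped for Fcrls between libraries 1 and 2, for Crybb1 between libraries 2 and 3 and for Sparc between libraries 1 and 3. Those orders are not read, and how many of all genes keep their order was not counted.

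Immediate early genes, which many cells switch on within minutes of a stimulus or of tissue handling, summed to 30697 CPM in library 3 against 2906 and 3449 CPM in libraries 1 and 2. Cells of library 3 were therefore ranked by these genes, and the strongest 1094 cells (median 84 UMIs of the 21 genes) were set against the weakest 1094 (median 37). The 10 genes were nearly level across them, from -0.08 for Olfml3 to 0.09 for Crybb1, and none was past the fold, beside 2.03% of 6005 genes higher and 1.18% lower. The shares among genes with at least 50 CPM were not taken for these groups. The weakest cells still held 18423 CPM of the early genes and the strongest 44871 CPM, with those genes left out of the total. Both groups thus stood above libraries 1 and 2, and cells at the level of those libraries were not compared. The intervals of Selplg (0.07, 0.03 to 0.12), Olfml3 (-0.08, -0.14 to -0.02) and Cx3cr1 (-0.08, -0.15 to -0.01) left out 0. Whether the cells' handling bears on the differences between libraries was not tested.

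Cell-to-cell variation was read from the Fano factor, the variance over the mean of thinned counts, which is 1 for counting noise alone. In library 2, Gpr34 had 1.18, above 49 of the 50 genes nearest in mean (median 1.04), and in library 3 it had 1.23, above 45 of 50. Fcrls was above 49, 45 and 44 of its 50 neighbours in libraries 1, 2 and 3, with Fano factors of 1.79, 1.14 and 1.24. In these libraries Gpr34 and Fcrls thus varied more among cells than most genes of their level, and they were not alone. Gpr34 in library 1 had 1.40, above 34 of 50. Olfml3 was above 41, 40 and 35 of its 50 neighbours in libraries 1, 2 and 3. The counts were 30, 39 and 28 for Selplg, 37, 38 and 25 for Sparc and 37, 20 and 26 for Tmem119. Siglech (1.05 and 1.02), Cx3cr1 (1.06 and 1.06), Cd33 (0.995 and 1.04) and Crybb1 (1.01 and 1.01) were near counting noise in libraries 2 and 3. Cd33 in library 3 was still above 40 of its 50 neighbours. In library 1 Crybb1 had 1.51, above 49 of its 50 neighbours, while Siglech (1.10), Cx3cr1 (1.37) and Cd33 (1.07) were above 12, 31 and 17.

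The 10 genes were hardly correlated over cells. At 4000 UMIs per cell, in 3218 cells of library 2 and 2912 of library 3, the median Pearson r of log counts over the 45 pairs was 0.017 and 0.0099, and the highest were 0.13 for Gpr34 with Selplg in library 2 and 0.16 for Tmem119 with Selplg in library 3. Cells share a library here, and sparse counts hold r down. Among 1487 genes with at least 100 CPM in both libraries, the gene nearest to Gpr34 was P2ry12 (r 0.24 in both), and P2ry12 was also nearest to Selplg (0.20 and 0.27). No other member had a gene at 0.2 or more in both. For Gpr34 the value was also between 0.19 and 0.24 within each class of library 2. For Selplg it was 0.21 in other cells and 0.22 in mitosis-gene cells. In replication-gene cells (0.17) and the cells between (0.16) it was under 0.2.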

How the data were processed

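YFP (+) cells of 1 naive, 1 24 h and 1 48 h sample were sequenced with a 3′ droplet kit, and the sort excluded doublets by gating. The authors deposited raw counts of UMIs per gene and cell, made with Cell Ranger 2.1.1 on mm10 per the submitters' processing notes, as 1 matrix of 7522 cells without normalization, so the unit is counts. From these counts UMIs were summed per library or class, scaled to 1000000, and compared as log2 ratios (pseudocount 1 CPM), with a call at 1.5-fold among genes with a mean of at least 20 CPM. Cells were thinned without replacement (seed 1). All deposited cells were used and no doublet caller was run. With 1 library per group and no key from suffix to sample, no test was run. The members and lists were chosen with earlier results of these data known. Genes named besides the members are up to 2 at each end of a list past the filter, those past the fold, nearest genes with r of at least 0.2, and P2ry12 and Csf1r. Some items are not reported here. Tyrobp, Spi1 and Cx3cl1 were named for their roles, after their values were seen. The scripts were tested on simulated data. Python 3.11.15, numpy 2.4.6, scipy 1.17.1 and pandas 2.3.3 were used.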

Additional observations from a re-analysis of the deposited data

How the results depend on the processing

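No paired analysis was possible because each group is 1 library and the suffixes carry no replicate number. No member's called difference reversed under any alternative. Of 130 counts of members past the fold, 120 stayed within 1.5 times of the value reported, and the rest came from the fold, the depth or the class threshold. Most of these counts were 0 and stayed at 0. Only the counts of members lower than in library 1 (2 in library 2 and 3 in library 3) began above 0. A fall from 3 to 2, as when Siglech was not called, was taken as unchanged. The 120 are thus no measure of how stable the calls are. At a lower call threshold (log2 ratio of 0.32), library 2 against library 1 had 1 member higher and 6 lower, beside 23.3% and 31.2% of all genes, and library 3 against library 1 had 1 higher and 5 lower, beside 21.4% and 31.7%. At 2-fold, each of these comparisons had 1 lower (Gpr34), beside 3.26% and 4.195% of all genes. Between mitosis-gene and other cells of library 2, 1 member was lower at the log2 threshold of 0.32 (Gpr34, beside 8.64% of all genes), 1 with classes set at 5 UMIs (Gpr34, -0.74, beside 5.72%) and 1 with thinning to 4000 UMIs (Cd33, -0.65, beside 6.77%). Thinning to 4000 UMIs also put 1 member, Cd33 (-0.65), lower in replication-gene cells of library 2, beside 7.22% of all genes. At that depth 1813 cells were mitosis-gene cells and 65 other cells. The class limits of 3 UMIs and 1 UMI were kept at each depth, so more UMIs per cell put more cells past them. Values at another depth therefore also compare other sets of cells. At 4000 UMIs library 1 kept 9 cells, so its shares at that depth carry little. Over the alternatives Gpr34 ranged from -1.25 to -1.16 in library 2 and from -1.01 to -0.91 in library 3 against library 1, and Cd33 from -0.75 to -0.63 and from -0.86 to -0.74. Median-of-ratios scaling moved the median of all genes by less than 0.1 on the log2 scale. Of 550 log2 ratios of members, 70 moved by more than their interval, and of 120 shares of cells 92 did, 60 of them at another depth and 29 with at least 2 UMIs asked for.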

Other observations

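Cells were also ranked by their P2ry12 UMIs after thinning to 2000 UMIs, a choice made after P2ry12 had come out as the gene nearest to Gpr34 and Selplg, so the values below describe that pattern and do not support it. The 136, 1189 and 1094 cells of libraries 1, 2 and 3 with the most P2ry12 UMIs were set against equal numbers with the fewest, ties being broken by file order. Gpr34 was higher in P2ry12-high cells by log2 ratios of 0.36, 0.40 and 0.40, with lower bounds of 0.18, 0.31 and 0.31. Selplg was higher by 0.33, 0.18 and 0.20, with lower bounds of 0.21, 0.13 and 0.15. The Gpr34 values in library 3 rest on 1144 CPM in P2ry12-high and 866 CPM in P2ry12-low cells. Siglech was at 0.39, 0.14 and 0.22, each with an interval above 0. Over all genes tested, the 5th to 95th percentiles of this log2 ratio ran from -0.96 to 0.99 in library 1. They ran from -0.37 to 0.33 in library 2 and from -0.37 to 0.36 in library 3. Gpr34 lay past that range in libraries 2 and 3 and inside it in library 1. The Selplg and Siglech values lay inside it in each library.

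Fcrls did not keep a direction over the libraries, at 0.61 in library 1 (0.39 to 0.83) but 0.0035 in library 2 (-0.07 to 0.08) and -0.07 in library 3 (-0.15 to -0.0025). Olfml3 was near 0 in each, at 0.04, -0.05 and -0.02. In library 1 the members other than Olfml3 and Sparc had intervals above 0, and Crybb1 reached 0.79 (0.37 to 1.22). All of these values lay inside the wide range of all genes in library 1, where a place inside it is not read. How many of all genes had intervals above 0 was not counted, so this is not read as a trait of the members. In library 3 the point value of Crybb1 (0.40) lay past the range of all genes, but its interval (0.24 to 0.57) took in the upper end of that range. The groups differed in other ways: P2ry12-low cells of library 2 had a median of 6848 UMIs per cell before thinning and 29.2% were mitosis-gene cells, against 5636 UMIs and 17.4% of P2ry12-high cells. The part of depth and of dividing cells in these values was not tested.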
